A study of Mus musculus with 9 samples.

Results

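Control MC3T3-E1 cells were compared between day 9 of osteogenic differentiation and day 0, the proliferating stage, across 19937 genes. The comparison used 6 of the 9 arrays of the study, 3 of each day, and covered every gene with a probe set that carries a single symbol. MC3T3-E1 subclone 4 is a clonal preosteoblast line from mouse calvaria, so all arrays stand for 1 clone. All cells of both groups had been infected with a lentivirus that encodes a scrambled short hairpin RNA (shRNA), the control named Scr, sorted by the green fluorescent protein of the virus and grown to near confluence. Day 0 cells were proliferating cells kept without ascorbic acid, and day 9 cells had then spent 9 days in medium with ascorbic acid and beta-glycerophosphate. Time in culture and the osteogenic medium therefore changed together, and their parts in any difference cannot be told apart. The labels call the arrays of a group biological replicates. The third group of the study, day 9 cells with an shRNA against Runx2 (shRunx2), entered the fit only to share the estimate of the spread.

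Preosteoblasts divide, stop dividing as they become dense, and then secrete a matrix of type I collagen that is later mineralized. Ascorbic acid is a cofactor of the prolyl and lysyl hydroxylases that stabilize collagen, and beta-glycerophosphate is a source of phosphate that alkaline phosphatase releases. Small leucine-rich proteoglycans bind collagen fibrils and set their width and spacing, while the sialoprotein Ibsp and the enzymes Alpl and Phex act on mineral formation.

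Values are log2 expression values from Affymetrix Mouse Gene 1.0 ST arrays, so a step of 1 is a doubling. Rose and fell are used of genes with an adjusted p under 0.05 (limma, Benjamini-Hochberg over all genes), and called of those among them that changed at least 1.5-fold. Errors given after a log2 change are the standard error (SE) of the model. By these criteria 576 genes were called higher at day 9 (2.89% of those tested) and 449 lower (2.25%), together 1025 genes or 5.14%. Among changes of any size, 2895 genes rose (14.5%) and 3413 fell (17.1%). In each called gene the 3 arrays of one day all lay above the 3 arrays of the other. This separation follows largely from the criteria of a call and adds no support to it. A change of at least 2-fold was reached by 212 of the called genes that rose and 129 of those that fell, one of at least 4-fold by 52 and 18, and one of at least 8-fold by 9 and 3. The median log2 change over all genes was -0.02. In the plot of all genes the called genes spread further above 0 than below it.

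**Figure D1:**
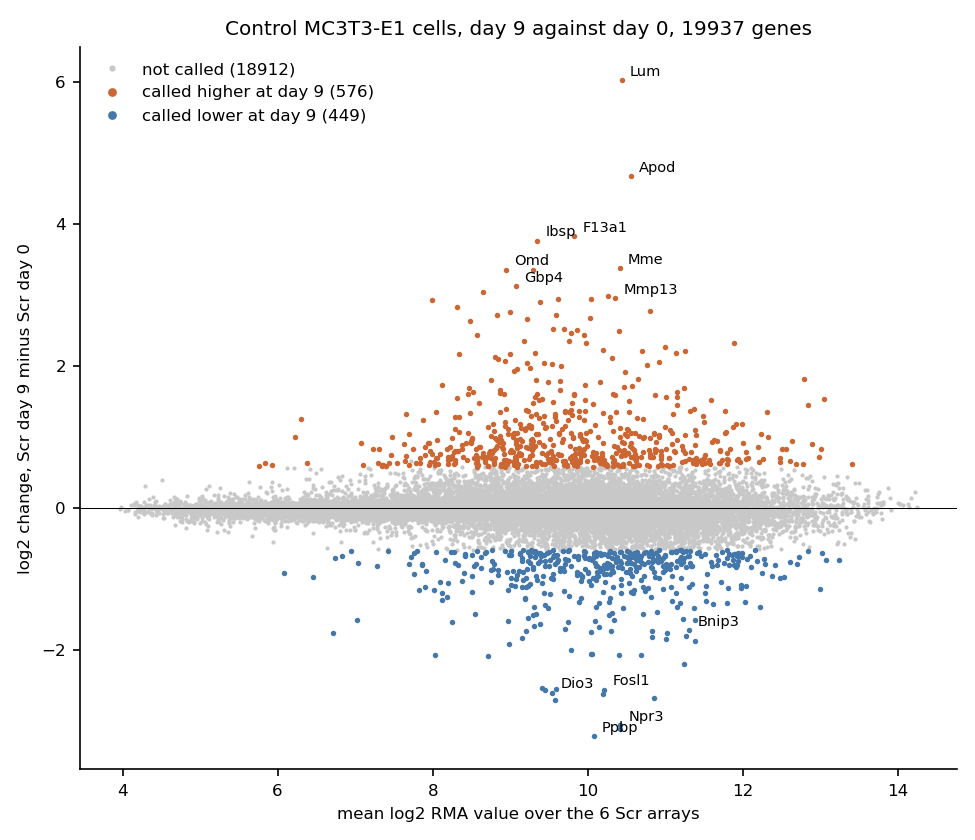
Each point is 1 of 19937 genes, with the mean log2 RMA value over the 6 Scr arrays on the horizontal axis and the log2 change from day 0 to day 9 on the vertical axis; orange points were called higher, blue points lower and grey points were not called. Lum lies highest at 6.02 and Ppbp lowest at -3.21.

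Across genes, 2 arrays of the same day correlated at 0.9981 to 0.9991 and arrays of different days at 0.9829 to 0.9856, given as a description across genes, which are not independent replicates. The first principal component of the 6 arrays, with 87.3% of the variance, had all day 0 arrays on one side and all day 9 arrays on the other. The median SD of a gene over 3 arrays was 0.052 at day 0 and 0.051 at day 9. Among osteoblast markers, Ibsp, Phex, Alpl and Sp7 were called higher at day 9, and Col1a1 and Col1a2 averaged 13.53 and 13.44 already at day 0 on a scale whose highest gene mean over the Scr arrays was 14.25. Of 23 skeletal muscle markers, 19 chondrocyte markers and 14 endothelial markers, none was called. Of 8 adipocyte markers (Pparg, Cebpa, Fabp4, Plin1, Adipoq, Lep, Retn and Cidec) none was called, and 1, Cebpa, rose by less than 1.5-fold (0.38 ± 0.048). The wider list of 30 lipid handling and adipocyte genes that holds them had 2 called higher and 3 lower, or 16.7%. Those called higher were the lipid carrier gene Apod and the fatty acid elongase gene Elovl6 (0.69 ± 0.049), and those called lower were Cebpd, a transcription factor of early adipocyte formation (-1.11 ± 0.050), the fatty acid-binding protein gene Fabp5 (-1.09 ± 0.053) and Dgat2, an enzyme of triglyceride synthesis (-0.60 ± 0.065). The fall of Dgat2 stayed below 1.5-fold without Scr day 0 replicate 1 (log2 change -0.53) or Scr day 9 replicate 2 (-0.57). Of 16 epithelial and neural markers, 1 was called higher and 2 lower, 18.8%. S100b, a calcium-binding protein gene of glia and some other cells, went from 8.71, 8.70 and 8.66 to 11.42, 11.34 and 11.35 (6.39-fold), whereas the tubulin gene Tubb3 fell 2.44-fold and the keratin gene Krt14 2.06-fold. Of 16 macrophage and leukocyte markers, 1 was called, or 6.25% beside 5.14% of all genes, a share near the background. It was the lysozyme gene Lyz2, which rose from 7.89 ± 0.14 to 8.69 ± 0.12 (SD, n = 3). The other lysozyme gene, Lyz1, did not pass (log2 change 0.09). In RNA of whole cultures, a change in the number of cells of a type and a change in RNA per cell cannot be told apart.

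The rise of the genes for small leucine-rich proteoglycans and related matrix proteins held the largest difference of all. Lum, which encodes the collagen-binding proteoglycan lumican, read 7.55, 7.30 and 7.43 on the day 0 arrays and 13.51, 13.41 and 13.42 on the day 9 arrays. It rose 65.1-fold (log2 change 6.02 ± 0.068, adjusted p = 8.06e-13), and the 2 days lay far apart relative to the spread within each. Omd, or osteomodulin, a keratan sulfate proteoglycan of bone, read 7.29, 7.23 and 7.27 at day 0 and 10.78, 10.57 and 10.50 at day 9, a 10.2-fold rise. Aspn, which encodes asporin, went from 10.76, 10.73 and 10.68 to 13.11, 13.01 and 13.01 (5.00-fold). In neither gene did the days overlap. Fmod, or fibromodulin, rose 3.52-fold from 11.88, and Dcn, or decorin, 2.89-fold from 12.28. Ogn, or osteoglycin, stood at 12.62 at day 0 and rose 1.64-fold.

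Of 45 proteoglycan and matrix glycoprotein genes measured, 13 were called higher and 2 lower, 33.3% against 5.14% of all genes, and their median log2 change was 0.14. The others called higher included Ecm2 (log2 change 2.13 ± 0.054), Edil3, a secreted integrin ligand (1.37 ± 0.063), and the microfibril protein gene Mfap5 (1.29 ± 0.055). Igsf10, of the immunoglobulin superfamily, rose by 0.98. The 2 called lower were Vcan, the gene for versican, a large proteoglycan of loose matrix (-1.10 ± 0.054), and Ltbp2, a microfibril protein (-0.61 ± 0.040).

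Several genes of mineral formation were called higher, while most of their list was not called. Ibsp, which encodes bone sialoprotein, read 7.47, 7.41 and 7.52 at day 0 and 11.16, 11.27 and 11.26 at day 9 and rose 13.6-fold (log2 change 3.76 ± 0.044, adjusted p = 8.06e-13). Phex, an endopeptidase of phosphate regulation and mineralization, went from 7.37, 7.48 and 7.24 to 9.77, 9.89 and 9.71 (5.39-fold). Alpl, the tissue-nonspecific alkaline phosphatase, went from 8.39, 8.59 and 8.55 to 10.07, 9.86 and 9.76 (2.61-fold). For all 3 genes the lowest day 9 array lay above the highest day 0 array. Tnfrsf19, a receptor of the tumor necrosis factor family, rose 5.00-fold. By quantitative PCR the paper reports a much larger rise of this gene.

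In the list of 18 bone matrix and mineralization genes, 4 were called higher and 1 lower, 27.8% of the list, and 8 rose and 5 fell at any size. The gene called lower was Slc20a1, a sodium-phosphate cotransporter (-0.76 ± 0.055). The genes for the main bone matrix proteins were high on both days. Col1a1 read 13.45, 13.55 and 13.57 at day 0 and 13.58, 13.60 and 13.59 at day 9, a log2 change of 0.06 ± 0.039 that did not pass (adjusted p = 0.27, 95% interval -0.02 to 0.15). The other chain of type I collagen, Col1a2, had a log2 change of 0.06 ± 0.036 and the matrix glycoprotein gene Sparc one of 0.06 ± 0.037, and neither passed. The values of Col1a1 and Col1a2 lie near the top of the scale. Whether the arrays can show a rise at that level was not tested. By quantitative PCR the paper reports a significant rise of Col1a1 during differentiation. The list's median log2 change was 0.06.

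**Figure D2:**
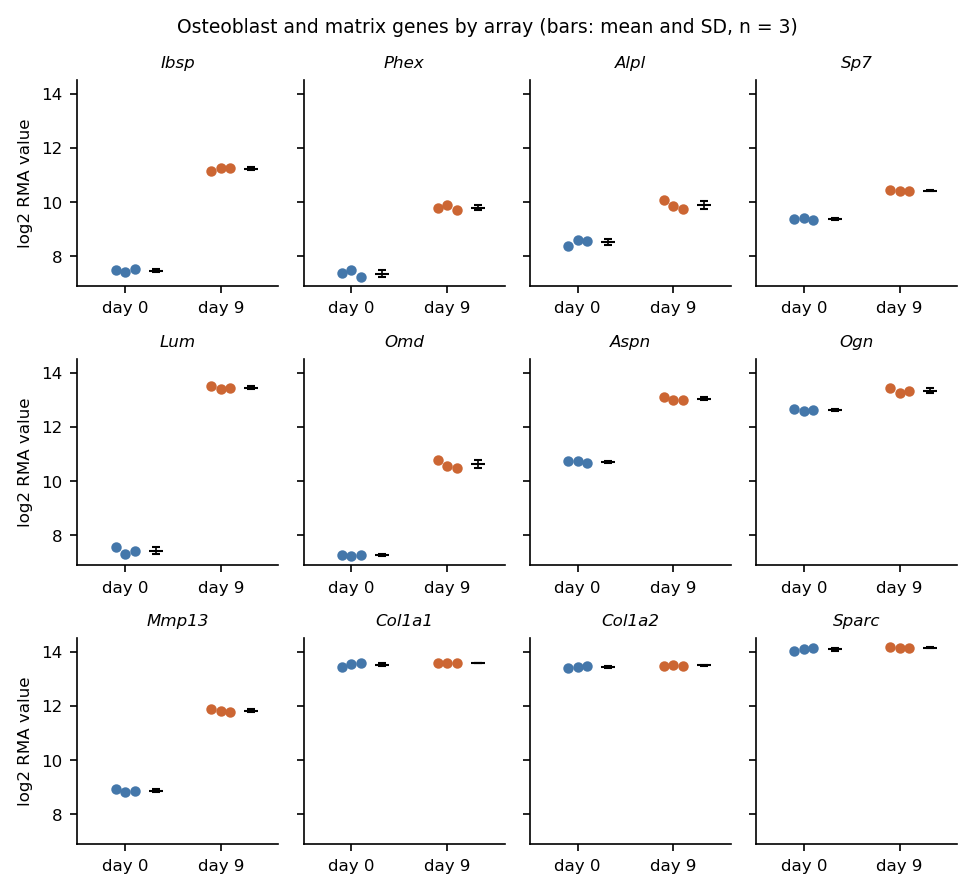
Log2 RMA values of 12 osteoblast and matrix genes on each of the 3 Scr arrays of day 0 (blue) and day 9 (orange), with the mean and SD as bars. The days are apart for Ibsp, Phex, Alpl, Sp7, Lum, Omd, Aspn, Ogn and Mmp13, whereas the means of Col1a1, Col1a2 and Sparc differ between days by 0.06, 0.06 and 0.06.

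Among 23 osteoblast transcription factors, 2 were called higher and 3 lower, 21.7% of the list beside 5.14% of all genes. Sp7, or osterix, which is required for osteoblast formation, read 9.36, 9.42 and 9.34 at day 0 and 10.44, 10.41 and 10.42 at day 9 and rose 2.07-fold. Zfp521, a zinc finger regulator of the osteoblast and chondrocyte lineages, rose 2.42-fold. The genes called lower encode the homeobox factor Msx2 (2.43-fold), the forkhead factor Foxc2 (2.32-fold) and the basic helix-loop-helix factor Twist2 (1.80-fold). Of 26 Hox genes, which record position along the body axis, none was called, and 3 rose and 1 fell at any size.

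Among collagen genes, the chains that were called rose, and most of the processing enzymes that were called fell. Of 33 chain genes, 6 were called higher and none lower, 18.2% of the list beside 5.14% of all genes. At any size 15 rose and 3 fell. Col15a1, a chain of a basement membrane zone collagen, rose 2.34-fold (log2 change 1.23 ± 0.040), Col3a1, the type III fibrillar chain, 1.83-fold, and Col24a1, a fibrillar chain found in bone, 1.66-fold. Of 28 collagen processing enzymes, 2 were called higher and 7 lower, 32.1% of the list. At any size 7 rose and 14 fell. P4ha2, a prolyl 4-hydroxylase subunit, read 11.15, 11.15 and 11.06 at day 0 and 9.62, 9.45 and 9.58 at day 9 and fell 2.96-fold. Lox, the lysyl oxidase that crosslinks collagen and elastin, fell 1.95-fold from 13.01, and the lysyl hydroxylase gene Plod2 1.93-fold from 11.56. The days did not overlap in these genes. Fkbp14, a prolyl isomerase of the endoplasmic reticulum, and P3h3, of the prolyl 3-hydroxylase family, were the 2 called higher (0.78 ± 0.044 and 0.67 ± 0.041). The difference between the 2 lists was not tested.

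Matrix proteases went both ways, with 5 of 33 called higher and 4 lower, 27.3% of the list beside 5.14% of all genes. Mmp13, the collagenase of bone and cartilage, read 8.92, 8.82 and 8.88 at day 0 and 11.90, 11.81 and 11.78 at day 9 and rose 7.76-fold. Htra1, a secreted serine protease, rose 2.58-fold, Mmp9, a gelatinase, 2.49-fold and Adamts4, which cuts aggrecan, 1.90-fold. Plau, the urokinase plasminogen activator, fell 3.00-fold, whereas Plat, the tissue plasminogen activator, rose 2.19-fold. The protease inhibitor gene Timp1 fell 1.54-fold. Of 11 osteoclast markers, 2 were called higher and none lower, 18.2% of the list. They were Mmp9 and the cysteine protease gene Ctsk (3.29-fold). Among 33 integrins, cadherins and related adhesion genes, 4 were called higher and 5 lower, 27.3% of the list. The alpha chains Itga8 and Itga10 rose 4.21-fold and 2.97-fold, and the alpha chains Itga11, Itga6 and Itga5 fell 2.10-fold, 2.00-fold and 1.76-fold.

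Proliferation genes fell together by small amounts. Of 49 DNA replication genes, 40 fell and none rose at any size, against 17.1% and 14.5% of all genes, with a median log2 change of -0.33, and 1 rose without Scr day 0 replicate 1. Of 64 mitosis and cytokinesis genes, 52 fell and 2 rose, with a median of -0.31. Few of these changes reached 1.5-fold. They were Mcm3, a subunit of the replicative helicase (-0.63 ± 0.055), the mitotic kinase gene Aurka (-0.65 ± 0.046) and Cenph, a kinetochore gene (-0.79 ± 0.052). Without Scr day 0 replicate 3, 4 genes of each list were called lower. Leaving out Scr day 9 replicate 1 gave 3 for replication and 4 for mitosis, and leaving out replicate 2 or 3 of day 9 gave 2 for replication. Aurka read 10.89, 10.86 and 10.90 at day 0 and 10.23, 10.22 and 10.25 at day 9, so that a difference of this size was many times the spread between arrays. Among 33 cyclins, inhibitors and E2F genes, 1 was called higher and 3 lower, 12.1% of the list beside 5.14% of all genes. Those called lower included the S-phase cyclin Ccne1 (-0.67 ± 0.048) and the repressor E2f7 (-0.68 ± 0.049). The inhibitor Cdkn2c was the one called higher (0.63 ± 0.047).

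Genes of ribosome assembly and of ribosomal proteins changed by small amounts. Of 30 ribosome biogenesis genes, 18 fell and none rose at any size, against 17.1% and 14.5% of all genes. The median log2 change was -0.19. In other settings 1 rose, without Scr day 0 replicate 1, without Scr day 9 replicate 2 or among genes above the median mean expression. With quantile normalization applied again, 3 rose. Of 33 cytosolic ribosomal protein genes, 15 rose, none fell and 18 did not pass, with a median of 0.12, and none reached 1.5-fold. Only 10 rose without Scr day 0 replicate 2 or Scr day 9 replicate 1, and 1 fell without Scr day 0 replicate 3. Of 30 genes for protein folding and secretion, 20 fell and 1 rose. The one called was Ero1a, the oxidase that drives disulfide formation in the endoplasmic reticulum, which fell 2.47-fold. Of 28 lysosome and autophagy genes, 17 rose and 3 fell, with Ctsk and the hexosaminidase gene Hexa (0.65 ± 0.044) called higher. The called share was 7.14% of the list beside 5.14% of all genes, near the background.

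Genes of glucose metabolism and of the hypoxia response fell. Of 29 genes, 14 were called lower and 2 higher, 55.2% against 5.14%, and the median log2 change was -0.58. Bnip3, a mitochondrial protein gene induced by hypoxia, read 12.17, 12.18 and 12.14 at day 0 and 10.49, 10.37 and 10.50 at day 9 and fell 3.27-fold (log2 change -1.71 ± 0.041, adjusted p = 1.08e-10). Slc2a1, the glucose transporter GLUT1, went from 12.90, 12.97 and 12.87 to 11.50, 11.55 and 11.54, a 2.61-fold fall. The days lay apart in both genes. The phosphofructokinase gene Pfkl fell 2.25-fold and the oxygen sensor Egln3, a prolyl hydroxylase of the hypoxia-inducible factors, 2.13-fold. Pgk1, an enzyme of glycolysis that is also used as a reference gene, fell 1.97-fold from 12.97. The 2 called higher were isoenzyme genes, Eno2 (0.90 ± 0.037) and Ldhb (0.62 ± 0.059), and the rise of Ldhb stayed below 1.5-fold without Scr day 0 replicate 2 (log2 change 0.58). Among 36 genes of the tricarboxylic acid cycle and the respiratory chain none was called, and 7 rose and 5 fell. The median of that list was 0.02. Without Scr day 9 replicate 3, 3 of these genes fell.

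Genes of amino acid metabolism fell, with a larger share called lower than in any other list drawn up here. Of 28 genes for amino acid and serine synthesis, transport and the response to amino acid shortage, 16 were called lower and none higher, 57.1% of the list, and 23 fell at any size. The median log2 change was -0.65. Bcat1, the cytosolic branched-chain aminotransferase, read 12.00, 11.99 and 12.02 at day 0 and 10.45, 10.45 and 10.45 at day 9, a 2.94-fold fall. Asns, asparagine synthetase, went from 13.56, 13.59 and 13.53 to 12.40, 12.46 and 12.42 (2.20-fold). The arrays of a day differed by at most a few hundredths in these genes. Chac1, which degrades glutathione, fell 2.62-fold, the cystine transporter gene Slc7a11 2.27-fold and the mitochondrial folate enzyme gene Aldh1l2 2.74-fold.

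**Figure D3:**
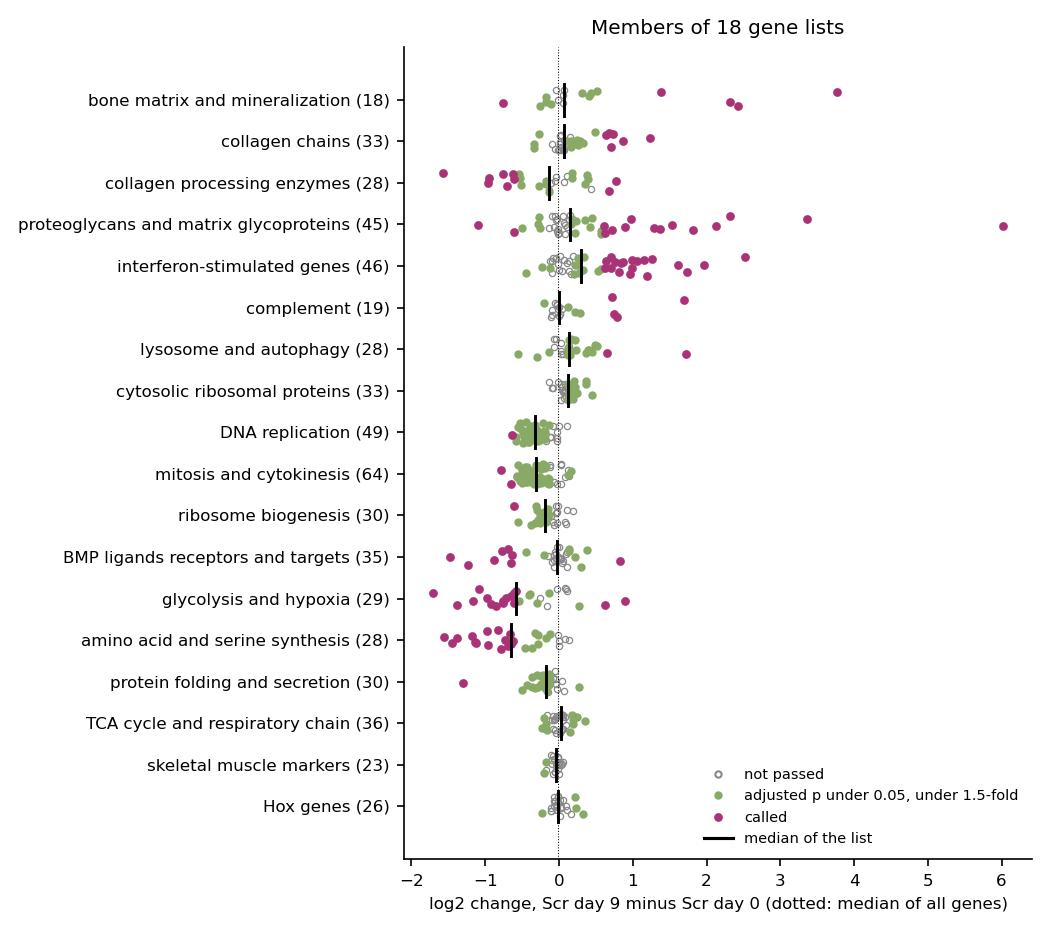
Each point is a gene of 1 of 18 lists, placed by its log2 change from day 0 to day 9, with the number of measured genes after the list's name; filled purple points were called, green points passed the test below 1.5-fold and open points did not pass, and the bar is the median of the list. The amino acid and glycolysis lists lie furthest to the left, and the proteoglycan and bone matrix lists reach furthest to the right.

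The promoters of several of these genes hold the sequence TGATGNAA, the binding sequence of C/EBP-ATF dimers such as those of ATF4. In 250 bases before to 50 after the start of transcription (RefSeq, GRCm38.p6), it was present on either strand in 7 of the 23 amino acid genes with a promoter sequence (30.4%), against 3.62% of the 15613 genes with one. It was held by 6 of 14 called members (42.9%). The 250 bases before the start are shown for the 3 called members with the largest falls that have a single listed promoter and hold a match, with matches in capitals.
Chac1, chr2:119350992-119351241: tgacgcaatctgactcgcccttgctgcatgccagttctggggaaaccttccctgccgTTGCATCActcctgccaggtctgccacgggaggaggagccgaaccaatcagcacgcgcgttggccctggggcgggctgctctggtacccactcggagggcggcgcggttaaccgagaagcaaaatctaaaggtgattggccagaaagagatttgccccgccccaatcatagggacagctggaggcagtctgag
Slc7a11, chr3:50443614-50443863: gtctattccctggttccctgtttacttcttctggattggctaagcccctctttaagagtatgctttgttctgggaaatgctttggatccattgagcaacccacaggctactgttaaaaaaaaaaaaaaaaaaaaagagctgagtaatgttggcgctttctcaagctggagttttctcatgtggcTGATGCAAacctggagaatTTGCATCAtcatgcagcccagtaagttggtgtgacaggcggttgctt
Asns, chr6:7693210-7693459: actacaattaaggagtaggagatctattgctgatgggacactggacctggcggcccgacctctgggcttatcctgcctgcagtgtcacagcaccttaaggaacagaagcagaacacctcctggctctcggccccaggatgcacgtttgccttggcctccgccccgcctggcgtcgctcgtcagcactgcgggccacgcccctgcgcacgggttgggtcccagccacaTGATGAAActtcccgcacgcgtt
Chac1 is on the plus strand and the others are on the minus strand, and each is written 5′ to 3′. A match is a description of the sequence and shows no binding. The lists compared here with all promoters were drawn up from known members of each pathway. A higher share in a list is therefore no independent evidence of regulation. The hypoxia core ACGTG was present in 21 of 28 glycolysis and hypoxia promoters (75.0%) against 24.4% of all, in 10 of 16 called members and 11 of 12 not called, and the palindrome CACGTG holds it on both strands. The sequence TTTGAA, part of the cell cycle homology region, was present in 37 of 55 mitosis promoters (67.3%) against 17.3% of all. The RUNX core TGTGGT was present in 4 of 12 bone matrix promoters (33.3%) against 16.4% of all, and in 1 of the 5 called members.

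Of 35 genes of the BMP pathway, 7 were called lower and 1 higher, 22.9% against 5.14% of all genes, and none of these encodes a BMP ligand or receptor. At any size 9 fell, 6 rose and 20 did not pass, and the median log2 change was -0.03. Id2, one of the Id inhibitors of differentiation that BMP signals induce, read 10.97, 11.05 and 11.12 at day 0 and 9.59, 9.57 and 9.56 at day 9, a 2.78-fold fall. Id3 went from 10.35, 10.31 and 10.45 to 9.17, 9.18 and 9.06 (2.35-fold), and Id1 from 9.47, 9.52 and 9.46 to 8.53, 8.66 and 8.60 (1.85-fold). In each of them the days were apart. The inhibitory Smad genes Smad6 and Smad7 fell 1.55-fold and 1.61-fold, Smad6 by less than 1.5-fold without Scr day 0 replicate 1 (log2 change -0.54), Id4 1.57-fold, and Fstl3, a secreted binder of activins, 1.71-fold. Chrdl1, a secreted BMP antagonist, was the one called higher (1.77-fold).

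**Figure D4:**
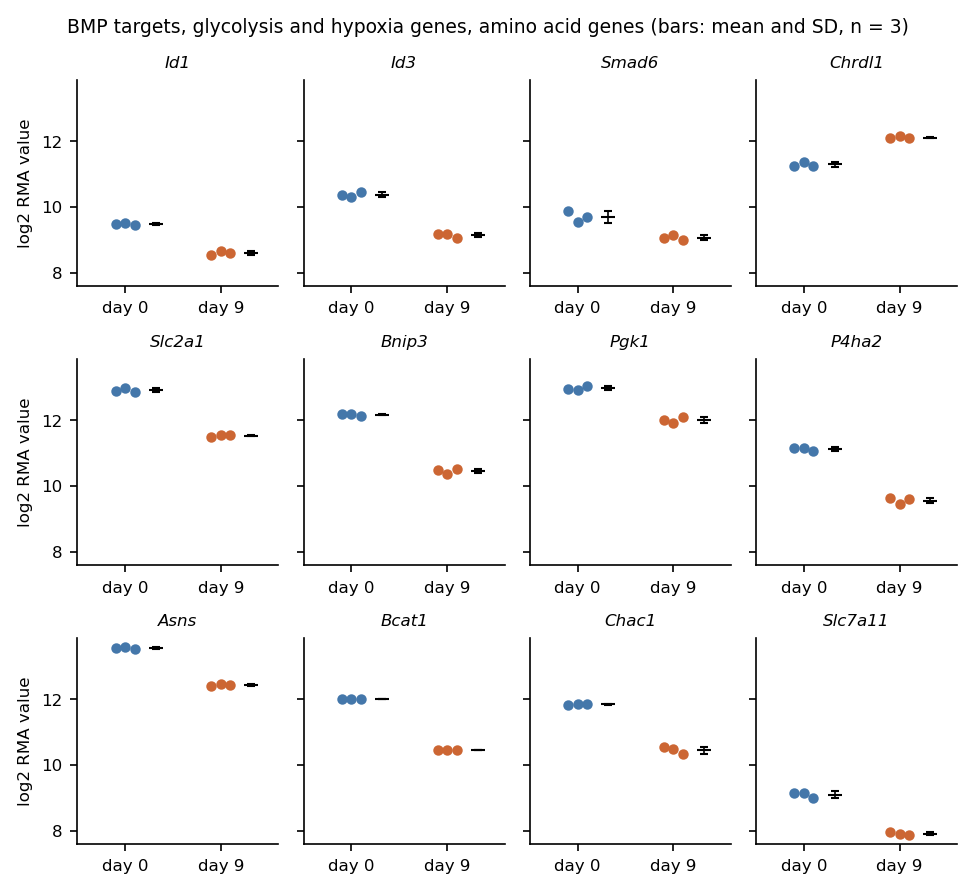
Log2 RMA values of 12 genes on the Scr arrays of day 0 (blue) and day 9 (orange), with the mean and SD as bars: BMP pathway genes in the top row, glycolysis and hypoxia genes with P4ha2 in the middle and amino acid genes at the bottom. All fell apart from Chrdl1, and in none do the days overlap.

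Of 23 genes of the TGF-beta pathway, 3 were called higher and 4 lower, 30.4% of the list beside 5.14% of all genes. At any size 5 rose and 11 fell. The ligand gene Tgfb2 rose 4.31-fold and Tgfb1 1.80-fold, and Lrrc32, which anchors latent TGF-beta at the cell surface, 1.94-fold, whereas the third ligand gene, Tgfb3, fell by less than 1.5-fold (-0.45 ± 0.043). Ankrd1, a nuclear ankyrin repeat gene induced by TGF-beta and by YAP, fell 4.16-fold. Tgfbi, a secreted matrix protein named for its induction by TGF-beta, fell 2.52-fold, Ccn2, the connective tissue growth factor, 1.86-fold and Skil, a Smad corepressor, 1.76-fold. Of 29 actin cytoskeleton and smooth muscle genes, 4 were called lower and none higher, 13.8% of the list. At any size 17 fell and 4 rose.

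Igf2, a growth factor of fetal tissues and of bone, read 8.54, 8.97 and 8.79 at day 0 and 11.82, 11.76 and 11.66 at day 9 and rose 7.90-fold. The binding protein gene Igfbp5 rose 5.54-fold, from 8.55 ± 0.066 to 11.02 ± 0.001 (SD, n = 3), and Igfbp4 1.78-fold. The receptor gene Igf1r fell 1.69-fold, and Igf2bp1, an RNA-binding protein of fetal cells, 1.94-fold. Of 19 genes of this axis, 4 were called higher and 5 lower, 47.4% of the list. Among 37 hormone and growth factor receptors and ligands, 10 were called higher and 4 lower, 37.8% of the list. Ghr, the growth hormone receptor, rose 2.32-fold. The natriuretic peptide clearance receptor gene Npr3 read 12.05, 11.95 and 11.82 at day 0 and 8.96, 8.77 and 8.96 at day 9, an 8.25-fold fall. The oncostatin M receptor gene Osmr fell 3.64-fold and the vitamin D receptor gene Vdr 1.73-fold. Of 49 Wnt pathway genes, 2 were called higher and 2 lower, 8.16% of the list beside 5.14% of all genes, a share near the background. Those called lower were Rspo2, an enhancer of Wnt signals (3.31-fold), and the ligand gene Wnt5a (1.76-fold), and those called higher the antagonist gene Dkk2 (1.62-fold) and the receptor gene Fzd9 (1.57-fold). Of 23 Notch and Hedgehog genes 1 was called higher, Notch1, and 1 lower, the Hedgehog receptor gene Ptch1 (2.12-fold), 8.7% and likewise near the background.

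Interferon-stimulated genes were called in 1 direction only. Of 46 genes, 19 were called higher and none lower, 41.3% of the list, and the median log2 change was 0.30. At any size 28 rose and 3 fell. Ifit3, an antiviral effector, read 8.32, 8.48 and 8.52 at day 0 and 11.05, 10.97 and 10.85 at day 9 and rose 5.74-fold. Ifit1 went from 8.10, 8.06 and 8.02 to 9.93, 9.68 and 9.43, a 3.07-fold rise. No day 9 array reached down to the day 0 arrays in either gene, though the day 9 arrays of Ifit1 differed among themselves by more than those of Ifit3. Ifi27l2a rose 3.90-fold, the immunity-related GTPase gene Iigp1 3.32-fold and Usp18, which removes ISG15 from proteins, 2.23-fold. Ifit3 and Ifit3b are close copies of each other, so that the reading of either may include RNA of the other. Of 15 antigen presentation genes none was called, and 1 was without Scr day 0 replicate 3.

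The interferon-stimulated response element GAAANNGAAA was present on either strand in 15 of 34 interferon gene promoters (44.1%) against 3.89% of all promoters. It was held by 7 of 12 called members and 8 of 22 not called. The list was drawn up from known interferon-stimulated genes, so its higher share is no independent evidence of regulation. The 250 bases before the start are shown for the 2 called members with the largest rises among those that have a single listed promoter and hold a match. Ifi27l2a and Iigp1 rose more than Ifit1, but neither had a promoter sequence among those counted, so their matches were not examined. Ifit3 and Ifit1 are both on the plus strand, and matches are in capitals.
Ifit3, chr19:34583279-34583528: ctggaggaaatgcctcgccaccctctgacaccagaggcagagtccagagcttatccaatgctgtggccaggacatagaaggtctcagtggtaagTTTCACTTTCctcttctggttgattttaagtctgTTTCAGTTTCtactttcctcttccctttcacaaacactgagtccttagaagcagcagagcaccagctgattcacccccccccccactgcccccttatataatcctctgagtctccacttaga
Ifit1, chr19:34640639-34640888: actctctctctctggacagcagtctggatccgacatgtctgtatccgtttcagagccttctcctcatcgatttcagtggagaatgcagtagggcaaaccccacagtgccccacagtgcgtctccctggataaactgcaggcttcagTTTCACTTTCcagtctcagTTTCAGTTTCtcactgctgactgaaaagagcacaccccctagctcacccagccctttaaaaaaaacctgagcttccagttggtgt
Each holds 2 matches, which start 156 and 122 bases before the start of transcription in Ifit3 and 104 and 85 in Ifit1.

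Other innate immune genes went in both directions. Of 42 chemokine, cytokine and NF-kappaB genes, 4 were called higher and 5 lower, 21.4% of the list beside 5.14% of all genes. Il33, an alarmin cytokine, rose 6.19-fold and the chemokine gene Ccl5 2.77-fold. Il6 fell 3.38-fold, and Ptgs2, the inducible cyclooxygenase, went from 11.72, 11.74 and 11.61 to 9.95, 10.00 and 9.94 (3.32-fold lower). Tnfrsf11b, or osteoprotegerin, the decoy receptor that restrains osteoclast formation, fell 1.84-fold. Of 19 complement genes 4 were called higher and none lower, 21.1% of the list, led by the protease gene C1s1 (3.24-fold). Among 29 immediate early and AP-1 genes, the AP-1 subunit Fosl1 fell 5.86-fold from 11.42, 11.48 and 11.56 to 8.97, 8.90 and 8.94, whereas Spry1, a feedback inhibitor of receptor tyrosine kinase signals, rose 4.01-fold.

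Other genes with large changes had various functions. Apod, which encodes apolipoprotein D, a carrier of small lipids, read 8.30, 8.44 and 7.91 at day 0 and 12.95, 12.90 and 12.83 at day 9 and rose 25.6-fold. F13a1, the catalytic subunit of the crosslinking factor XIII, went from 8.03, 7.88 and 7.81 to 11.76, 11.70 and 11.74 (14.2-fold). Mme, the membrane peptidase neprilysin, went from 8.82, 8.73 and 8.61 to 12.09, 12.13 and 12.07 (10.4-fold). The days were far apart in each. Enpep, aminopeptidase A, rose 7.71-fold, the alcohol dehydrogenase gene Adh1 7.45-fold, Pgm5, a structural relative of phosphoglucomutase, 10.2-fold, and the secreted protein gene Otor 8.23-fold. Gbp4, a guanylate-binding protein, rose 8.71-fold, with its day 0 arrays spread over 7.08, 7.71 and 7.75.

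Ppbp, a platelet chemokine gene, showed the largest fall. It read 11.78, 11.64 and 11.62 at day 0 and 8.47, 8.47 and 8.48 at day 9, a 9.23-fold difference (log2 change -3.21 ± 0.050, adjusted p = 5.68e-12). Anxa8, which encodes a calcium-dependent membrane-binding protein, went from 11.97, 11.95 and 12.00 to 8.85, 8.86 and 8.88 (8.62-fold). Both genes had arrays of a day that lay within 0.2 of each other. Cemip, a hyaluronan-degrading protein gene, fell 6.33-fold, the fatty acid elongase gene Elovl7 6.11-fold and Steap1, of a metalloreductase family, 6.47-fold. Dio3, the imprinted gene for the deiodinase that inactivates thyroid hormone, went from 10.91, 10.75 and 10.86 to 8.25, 8.28 and 8.21 (6.03-fold). Sema3c, a secreted guidance factor, fell 5.79-fold and Pkp2, a plakophilin of desmosomes, 5.78-fold. Of 17 imprinted genes, 3 were called higher and 3 lower, 35.3% of the list beside 5.14% of all genes, with Igf2 rising most and Dio3 falling most.

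Stress and redox genes went both ways. Of 27 antioxidant and iron genes, 6 were called lower and 2 higher, 29.6% of the list beside 5.14% of all genes. At any size 10 fell and 6 rose, with a median log2 change of -0.03. The transferrin receptor gene Tfrc fell 3.25-fold and the quinone reductase gene Nqo1 2.23-fold. Selenop, a secreted selenium carrier, rose 4.12-fold. Of 20 p53 targets and senescence genes, 4 were called lower, with Gadd45b falling 2.26-fold, and 1 higher, Sesn1, a sestrin (2.51-fold). Of 20 cholesterol synthesis genes 1 was called, the sterol sensor partner Insig1 (1.81-fold higher). That is 5.0% of the list beside 5.14% of all genes, a share near the background. Of 13 reference genes, Pgk1 and Tfrc were called lower, 15.4% of the list, and Actb, which encodes beta-actin, averaged 14.14 and 14.15 on the 2 days.

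Of the 13 measured genes that the study followed, 9 were called higher and 1, Id3, lower, a list picked by the study for its interest in osteoblast differentiation and thus no independent evidence of its direction. Crabp2, a carrier of retinoic acid, rose 1.79-fold. Ezh2, a histone methyltransferase gene of the Polycomb group, had a log2 change of -0.05 ± 0.043 (adjusted p = 0.447). By quantitative PCR the paper reports a decrease of this mRNA during differentiation, which the arrays did not show. The reason for the difference between the methods was not tested. In the shRunx2 cells at day 9, which share the scrambled cells' culture time, Ibsp averaged 10.11, Phex 7.85 and Mmp13 10.71. In Scr cells of day 9 these averaged 11.23, 9.79 and 11.83. Lum averaged 13.69 beside 13.45 in Scr cells, and Ifit3 12.71 beside 10.96. The paper lists Ibsp, Phex and Mmp13 among the genes most lowered by the knockdown, so they are a picked set. These differences were not tested.

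Loci of microRNAs were also read by the arrays, through probe sets of the locus, and the mature strand was not measured separately. MicroRNAs pair with messenger RNAs mainly through the seed, bases 2 to 8 of the mature strand. Of 296 such loci, 17 were called higher and none lower, 5.74% against 5.14% of all genes, so that the share called was near the background while every call was in 1 direction. These loci were chosen for description after their values were seen. Some called loci, among them Mirlet7a-2 (log2 change 0.60) and Mir199b, had only 1 mature strand in the sequences used. Whether their other strand shares a seed was therefore not examined, and the list below may be incomplete. Among the strands available, those that share their seed with that of another called locus are shown 5′ to 3′ from RefSeq (GRCm38.p6), with the seed in capitals.
let-7c-5p (Mirlet7c-1): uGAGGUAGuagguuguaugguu
let-7f-5p (Mirlet7f-1): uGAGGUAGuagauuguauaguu
miR-99a-5p (Mir99a): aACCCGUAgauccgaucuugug
miR-100-5p (Mir100): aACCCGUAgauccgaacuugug
miR-15a-5p (Mir15a): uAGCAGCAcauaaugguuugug
miR-16-5p (Mir16-1): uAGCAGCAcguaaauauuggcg
miR-199a-3p (Mir199a-1): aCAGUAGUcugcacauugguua
miR-199b-3p (Mir199b): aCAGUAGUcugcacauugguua
Mirlet7c-1 read 6.52, 6.69 and 6.39 at day 0 and 9.59, 9.47 and 9.31 at day 9 and rose 7.59-fold. Mir99a went from 7.91, 7.83 and 7.64 to 9.85, 10.02 and 9.82 (4.30-fold). The 2 loci lie within 1 kilobase of each other on chromosome 16, and Mir99ahg, the host transcript of that cluster, rose 3.47-fold. Mir15a rose 2.24-fold, and Mir16-1, its neighbour on chromosome 14, 1.52-fold, a log2 change that stayed below 1.5-fold without Scr day 0 replicate 2 (0.54) or Scr day 9 replicate 3 (0.58). Mirlet7f-1 and Mir100 rose 1.55-fold and 1.57-fold, and both stayed below 1.5-fold without Scr day 0 replicate 3 (log2 changes 0.54 and 0.58) or Scr day 9 replicate 1 (0.56 and 0.53). Hmga2 and Igf2bp1, which are known as let-7 targets, each fell 1.94-fold, and the part of the microRNAs in this was not tested.

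**Figure D5:**
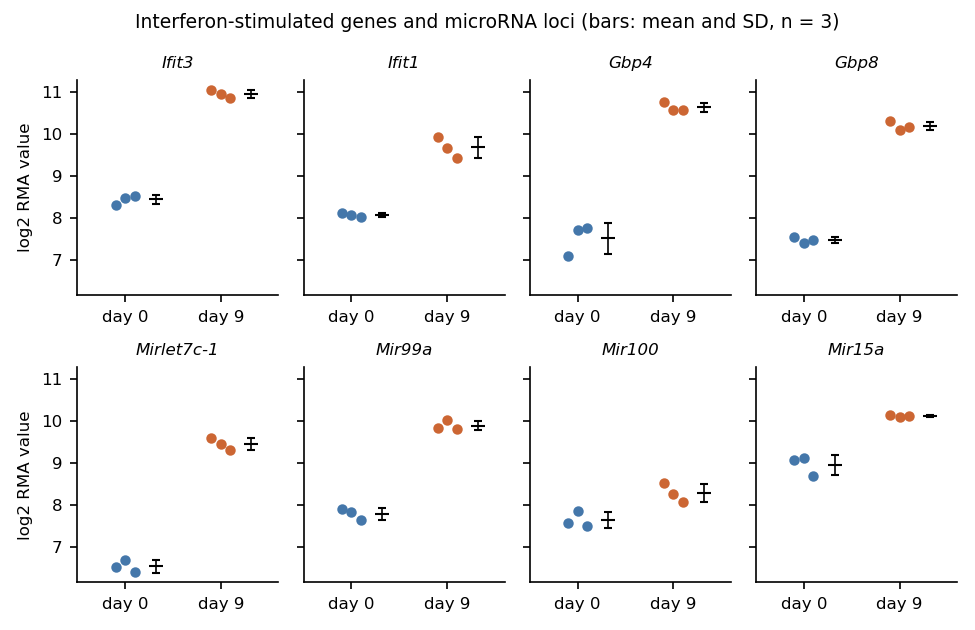
Log2 RMA values of 4 interferon-inducible genes (top) and 4 microRNA loci (bottom) on the Scr arrays of day 0 (blue) and day 9 (orange), with the mean and SD as bars. All 8 were called higher, and Mir100 shows the smallest step, 0.65 on the log2 scale.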

How the data were processed

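The deposited values are log2 expression values that the authors made by RMA, which corrects background, applies quantile normalization across arrays and summarizes probes (RMA and limma per the submitters' notes). The number of arrays limits the precision, as there is no read depth. Of 34760 probe sets, 21640 carried 1 symbol in the platform annotation. For the 954 genes with several, the probe set brightest on average over the 9 arrays stood for the gene. No genome build is stated for the values. Runx2 and some other genes are not analysed here.

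The contrast of Scr day 9 with Scr day 0 was fitted in limma 3.58.1 (R 4.3.3; lmFit and eBayes, two-sided) with all 9 arrays in 1 model of group means and Benjamini-Hochberg adjustment over 19937 genes. The script was tested on simulated data. The p-values measure the spread between the 3 arrays of a group. Alternatives changed the arrays, probe sets, filter, scaling, prior, weights, threshold or replicate block, or left out an array.

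Genes chosen for naming were those the study followed, the 15 largest called rises and the 15 largest called falls without overlap between days. Up to 4 called members in each direction of each of 48 lists (1244 genes) were chosen too. Lists with few calls also gave up to 3 members that did not pass. Not all of these genes are printed here. Other named genes, and 5 lists added later, were chosen after their values were seen. All lists were drawn up with earlier results of these data known. Promoter motifs were counted, not tested.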

Additional observations from a re-analysis of the deposited data

Results flagged for a closer look

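Probe sets outside the genes described also differed between the days. Fitted in the same model with all 34760 probe sets, 344 of the 11799 probe sets that are unnamed here were called higher at day 9 and 68 lower, 3.49% of them. Of the 1321 that carry several symbols, 32 were called higher and 15 lower, 3.56%, against 5.04% of the probe sets with 1 symbol. They came up because they hold a difference in data that no comparison above used.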

How the results depend on the processing

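Under 19 alternative settings the counts of called genes stayed within 1.5 times of 576 higher and 449 lower, with the exception of limma's treat, which asks for a change significantly beyond 1.5-fold and gave 319 higher and 245 lower. With 1 array left out the counts ranged from 515 to 627 higher and from 426 to 467 lower. Subtracting the median of each array gave 528 higher and 499 lower, and 4 called lower in each of the lists of DNA replication and mitosis. The replicate block, in which the replicate number is a term of the model, gave 577 higher and 449 lower and changed no call among the named genes. The deviations of arrays with the same number correlated at 0.294, 0.0823 and 0.285, and those of arrays with different numbers at -0.293 to 0.11. The same-number values were not over 0.1 in every pair, so the numbers were not taken to pair the arrays. Whether the numbers mark an effect shared by both days was not tested. Of 207 called genes among those named or chosen for naming, 50 lost the call under treat and 10 under at least 1 other setting, and none reversed. Arrays give no reads, so the limits are 3 arrays a group, 1 cell clone, probe sets that may read related genes, and no detection calls in the values used here.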

Other observations

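The following genes and groups were chosen after their values were seen, and the counts cover every measured member of the list drawn up for a group. Among guanylate-binding proteins, which are interferon-inducible GTPases, 6 of 8 were called higher and none lower, 75.0% beside 5.14% of all genes. Their median log2 change was 0.97. Gbp4 rose 8.71-fold, Gbp8 6.61-fold from 7.54, 7.40 and 7.47 to 10.30, 10.10 and 10.18, and Gbp9 4.14-fold. These genes are close relatives, and a probe set may read RNA of more than 1 of them. Of 8 genes listed for the angiotensin system and for surface enzymes, 4 were called higher and none lower. They were Mme, Enpep, the angiotensinogen gene Agt, which went from 8.54, 8.65 and 8.63 to 11.15, 11.14 and 11.04 (5.67-fold), and Nt5e (4.52-fold). Nt5e encodes the ectoenzyme CD73, which makes adenosine and is not a peptidase. The angiotensin receptor genes Agtr1a and Agtr2 did not pass, at log2 changes of -0.02 ± 0.037 and 0.06 ± 0.093.

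Of 10 ligands of the epidermal growth factor family, 3 were called lower and none higher, 30.0% of the list beside 5.14% of all genes. Nrg1, or neuregulin 1, went from 12.18, 12.15 and 12.16 to 10.64, 10.57 and 10.56 (2.97-fold), Ereg, or epiregulin, fell 2.81-fold and Hbegf 2.39-fold. Egfr, which encodes the receptor of Ereg and Hbegf, rose 1.72-fold. Of 15 prostaglandin genes, 2 were called higher and 1 lower, 20.0% of the list. The prostaglandin F receptor gene Ptgfr went from 10.11, 10.04 and 9.98 to 12.20, 12.21 and 12.26, a 4.54-fold rise, and the gene called lower was Ptgs2. Of 14 desmosome and cornified envelope genes, 3 were called lower and none higher, 21.4% of the list. They were Pkp2, the corneodesmosin gene Cdsn (2.17-fold) and the keratin gene Krt14 (2.06-fold). Of 51 small nucleolar RNA loci, which guide chemical changes of ribosomal RNA, 13 were called higher and 1 lower, 27.5% of them, while of 1027 olfactory receptor genes none was called, and 7 rose and 18 fell at any size.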
